A study of Mus musculus with 6 samples.

Results

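Chemokines are small secreted proteins that guide leukocytes, and their receptors are the G-protein-coupled receptors that read them. The genes described here are the protein-coding rows of the deposited expression table whose symbols begin with Ccl, Cxcl, Xcl or Cx3cl (ligands) or with Ccr, Cxcr, Xcr or Cx3cr (receptors), followed by a digit. They numbered 63 of the 54556 genes in the table, 44 of them ligands and 19 receptors, and they carried 58 different symbols, since some symbols recur on the unplaced scaffolds that hold 7 of the rows. Another 3 rows with such names were not protein coding and were not counted as members. Of the 63 genes, 7 had no read in any library, 35 had reads but a mean under 1 FPKM (fragments per kilobase scaled by library size, a level corrected for gene length), and 21 were tested.

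RNA was sequenced from pancreatic islets of C57BL/6 mice, aged 8 weeks and kept on normal chow. The 3 libraries labelled BKO came from mice with both Mettl3 alleles floxed and a RIP-Cre transgene, in which the rat insulin promoter drives Cre in β cells. The 3 libraries labelled FF came from Mettl3 flox/flox mice with no Cre named. Mettl3 is the catalytic subunit of the enzyme that writes N6-methyladenosine in RNA. The floxed alleles and the diet were common to both groups, no group is labelled with Cre alone, and the effects of Cre and of the deletion cannot be told apart. The sources name neither the animals nor any pooling of islets, and p-values therefore cover the spread among the libraries alone, which may be technical.

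Chemokine ligands sort into constitutive signals that position lymphocytes in lymph nodes, Peyer's patches and follicles, mucosal signals made by gut and other epithelia, and inflammatory signals made by macrophages, endothelium and epithelium after cytokine stimulation. Most receptors sit on leukocytes, whereas Cxcr4 is also found on other cells. Islets hold resident macrophages, capillaries and few lymphocytes.

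The recovered reads came to between 16398862 and 18387313 per library. Mettl3, the floxed gene, was not lower in the libraries labelled BKO, with 4.06, 4.20 and 4.15 FPKM there and 3.42, 2.89 and 3.93 FPKM in FF libraries (limma adjusted p = 0.120). The deleted exons are not given, so a value over the whole gene may not show the deletion. BKO replicate 3 held the middle value of its group for 51.4% of tested genes with 3 different values, against 23.9% for replicate 1 and 24.7% for replicate 2, and FF replicate 3 for 42.4% of them. The 8 β-cell markers summed to between 98898 and 106558 FPKM in BKO libraries and between 239259 and 300324 FPKM in FF libraries. Markers of enterocytes, the absorptive cells of the gut, summed to 145, 892 and 463 FPKM in BKO replicates 1, 2 and 3 and to 58.0, 47.0 and 51.4 FPKM in FF replicates 1, 2 and 3. BKO replicates 2 and 3 thus had the highest enterocyte sums, and BKO replicate 1 lay between them and the FF libraries. Results are also given without BKO replicates 2 and 3 where a call was lost or gained. In bulk RNA, fewer cells of a type and less RNA per cell cannot be told apart.

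On the scale log2(FPKM + 0.5), the largest differences among the members were those of Ccr7, Ccl5, Cxcl13 and Cxcr5, which guide lymphocytes. The order depends on the scale. With limma-voom on the recovered reads, Ccl22 (5.69) and Ccr6 (5.23) stood above Cxcl13 (4.85) and Ccl5 (4.53). In BKO islets 11 members were higher and 2 were lower, with 8 of the 21 tested not past the threshold of a Benjamini-Hochberg adjusted p of 0.05 in limma. Among all 14497 tested genes 34% passed, with 16.9% higher and 17.2% lower. By role, 7 ligands were higher, 2 were lower and 7 did not pass, while 4 receptors were higher, 0 were lower and 1 did not pass. The median log2 difference was 0.75 over the 16 tested ligands and 2.32 over the 5 tested receptors, against -0.00452 over all tested genes. These counts and medians are descriptions, because 9 of the 21 tested members averaged under 1 FPKM in FF islets and entered the test through their BKO values. Of these 9, 8 were among the 11 higher members. All 3 BKO values lay above all 3 FF values for 13 tested members and below them for 3, against 25.1% and 25.4% of all tested genes and 50.5% in either direction. All differences below are BKO minus FF on log2(FPKM + 0.5), with the standard error of the model, and that scale understates the change of genes near 0.

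**Figure D1:**
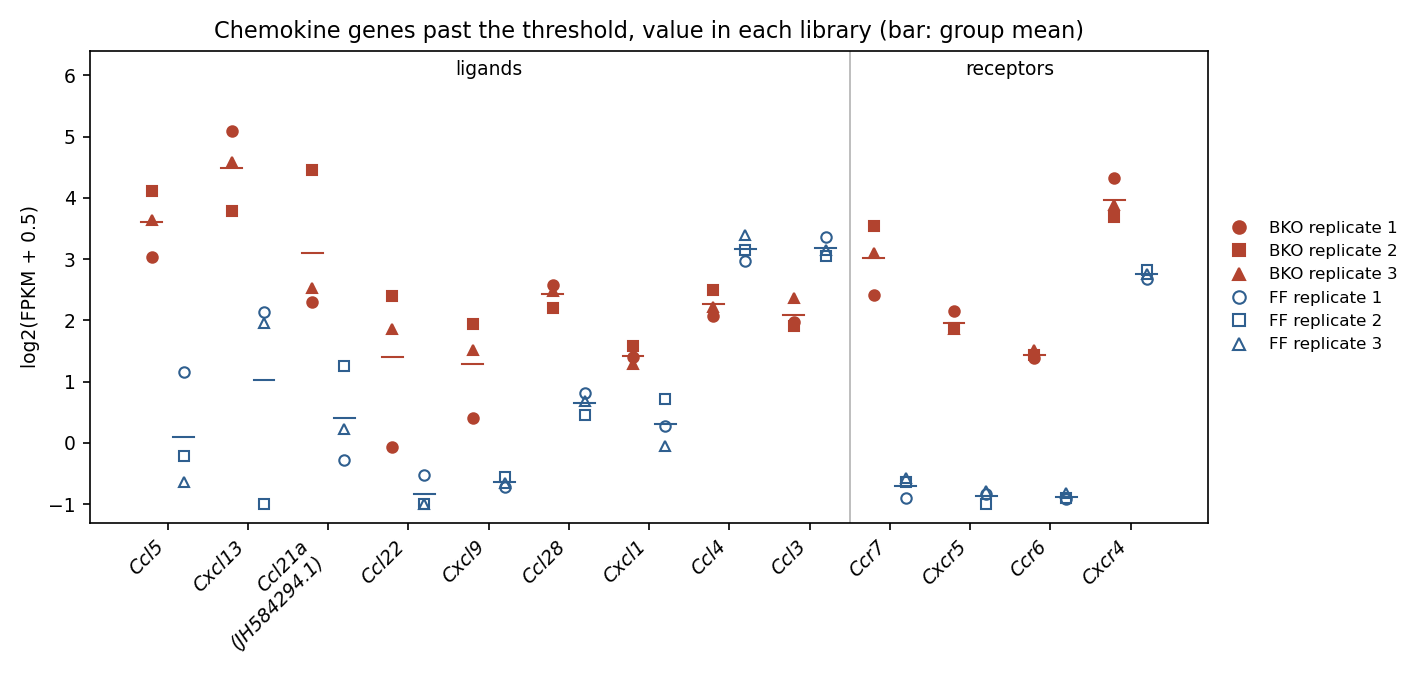
Level of the 13 members past the threshold in each library, as log2(FPKM + 0.5) on the vertical axis, with BKO libraries filled, FF libraries open and a bar at each group mean. Ccr7, Cxcr5 and Ccr6 lie near the floor in all 3 FF libraries, and of these 13 members Ccl3 and Ccl4 have all BKO libraries below all FF libraries.

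Ccr7, which leads naive T cells and mature dendritic cells into lymph nodes, was the receptor with the largest difference. It stood at 4.80, 11.1 and 8.09 FPKM in BKO replicates 1, 2 and 3 and at 0.0334, 0.140 and 0.170 FPKM in FF replicates 1, 2 and 3, from 198, 430 and 332 reads in BKO and 1, 4 and 5 reads in FF. FF islets were thus close to empty of Ccr7 transcript, and the groups did not overlap. The log2 difference was 3.73 ± 0.29 (SE, n = 3 each, limma adjusted p = 0.000366). The gene (ENSMUSG00000037944) lies on chromosome 11 from 99144196 to 99155077 of GRCm38.

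Cxcr5, which holds B cells and follicular helper T cells in follicles, was likewise near 0 in FF islets. Its values were 3.93, 3.16 and 3.13 FPKM in BKO libraries and 0.0595, 0 and 0.0809 FPKM in FF libraries, where it rested on 3, 0 and 4 reads. Unlike Ccr7 it was highest in BKO replicate 1, and its BKO values lay within a narrow range. The difference was 2.83 ± 0.20 (adjusted p = 0.000271). Cxcr5 (ENSMUSG00000047880, chromosome 9, 44511787 to 44561877) overlaps Bcl9l on the opposite strand, and reads of the overlap cannot be assigned without the strandedness of the libraries, which is not given in the sources used here.

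Ccr6, the receptor of Ccl20 on B cells, some helper T cells and dendritic cells, had 2.11, 2.19 and 2.35 FPKM in BKO libraries and 0.0326, 0.0341 and 0.0664 FPKM in FF libraries. The BKO libraries were almost level with each other, and the FF libraries held 1, 1 and 2 reads. The difference was 2.32 ± 0.23 (adjusted p = 0.000871; ENSMUSG00000040899, chromosome 17, 8236043 to 8257127).

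Cxcr4, the receptor of Cxcl12 carried by nearly all leukocytes and by other cells too, was well measured in both groups. It measured 19.5, 12.4 and 14.3 FPKM in BKO islets and 5.92, 6.55 and 6.26 FPKM in FF islets. All 3 BKO values lay above all 3 FF values, and the FF values were tightly grouped. The difference of 1.21 ± 0.16 (adjusted p = 0.00235) was the smallest of the 4 higher receptors (ENSMUSG00000045382, chromosome 1, 128588199 to 128592293). Calls for Ccr7, Cxcr5, Ccr6 and Cxcr4 were kept under all 15 other settings tried.

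Markers of lymphocytes moved with these receptors. All 10 B-cell markers were higher, with a median log2 difference of 3.45, and they summed to 140.3, 91.0 and 119 FPKM in BKO replicates 1, 2 and 3 and to 7.60, 3.40 and 6.39 FPKM in FF replicates. Cd79b, part of the B-cell antigen receptor, averaged 23.6 ± 5.14 FPKM in BKO islets and 0.111 ± 0.0560 FPKM in FF islets (SD, n = 3). T-cell markers summed to 16.0, 30.9 and 23.0 FPKM in BKO libraries and to 2.28, 1.92 and 1.66 FPKM in FF libraries, and all 5 of the 10 that were tested were higher. B-cell markers other than Cd79a averaged under 1 FPKM in FF islets and entered the test through their BKO values. T-cell markers, with such low FF sums, could enter in the same way, so both counts are descriptions. The order of the BKO replicates differed between the lists, with replicate 1 highest for B-cell markers and replicate 2 highest for T-cell markers. Among the receptors, Cxcr5 and Cxcr4 were highest in replicate 1, Ccr7 in replicate 2 and Ccr6 in replicate 3. Replicate 2 was also highest for lists of other cells, among them enterocytes and plasma cells. The part of B and T cells in the receptor values was not tested.

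Cxcl13, the ligand of Cxcr5 that follicular stroma makes to draw B cells, had the highest level of any member in BKO islets. It reached 33.7, 13.3 and 23.4 FPKM in BKO replicates 1, 2 and 3 and 3.91, 0 and 3.40 FPKM in FF replicates 1, 2 and 3. FF replicate 2 held no read of it, while the other FF libraries held 68 and 58. The difference was 3.45 ± 0.84 (adjusted p = 0.0218; ENSMUSG00000023078, chromosome 5, 95956951 to 95961068). The call was lost without BKO replicate 1 (3.15, adjusted p = 0.0621) or BKO replicate 3 (3.40, adjusted p = 0.0697), and with the pseudocount lowered to 0.1 or no filter (adjusted p = 0.0520 and 0.0538). It was also lost without BKO replicates 2 and 3 together (adjusted p = 0.194).

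Ccl21, a Ccr7 ligand of high endothelial venules, lymphatic vessels and T-cell zones, exists in the mouse genome as near-identical copies, and reads may be split between them. Only the copy of Ccl21a on scaffold JH584294.1 (ENSMUSG00000095320, 121048 to 121713) reached the filter, at 4.41, 21.5 and 5.28 FPKM in BKO libraries and 0.329, 1.89 and 0.670 FPKM in FF libraries. BKO replicate 2 stood well above the other BKO libraries, with 169 reads against 37 and 44. The difference was 2.69 ± 0.64 (adjusted p = 0.0198), and the call was lost without FF replicate 1 or FF replicate 3 (adjusted p = 0.0615 and 0.0632), with limma-voom on the recovered reads (0.0631), or without BKO replicates 2 and 3 together (0.182). Summed over the 6 Ccl21 rows, 3 of which had reads, the count was 38, 181 and 47 reads in BKO libraries and 2, 11 and 4 in FF libraries.

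Ccl19, the other Ccr7 ligand, was barely measured as a coding gene, with 2 reads in each BKO library and 0, 1 and 0 reads in FF libraries. Its copy Ccl19-ps3, an unprocessed pseudogene by the table's annotation that is no member and was looked at after its values were seen, had 19, 113 and 137 reads in BKO libraries and 0, 2 and 6 in FF libraries. Sequence shared between Ccl19 and its copies may divide the reads, so the low count of Ccl19 is uncertain. Ccl20, the ligand of Ccr6, had 0, 15 and 2 reads in BKO replicates 1, 2 and 3 and 0 in each FF library. The groups thus overlapped, and BKO replicate 2 held most of the 17 reads. Setting the FF group to a floor of 3 reads gave a 4.12-fold difference. With a lower filter, at 0.1 FPKM, Ccl20 was tested and did not pass (0.41 ± 0.29, adjusted p = 0.375).

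Cxcl12, the ligand of Cxcr4 made by stromal and endothelial cells, did not pass. It had 3.41, 3.41 and 3.62 FPKM in BKO islets and 1.44, 4.28 and 2.57 FPKM in FF islets, where the groups overlapped (0.38 ± 0.30, adjusted p = 0.370). The difference was 0.053 without FF replicate 1 and 0.70 without FF replicate 2 (adjusted p = 0.862 and 0.0539). The atypical receptor Ackr3, which scavenges Cxcl12, was lower, with 2.25 ± 0.323 FPKM in BKO islets and 3.60 ± 0.678 FPKM in FF islets (SD, n = 3; log2 difference -0.57, adjusted p = 0.0272). It was the single member of the 5 atypical receptors past the threshold, with 2 more tested and not past.

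Markers of lymphoid stroma and high endothelium summed to 107, 127 and 113 FPKM in BKO libraries and to 43.4, 40.6 and 38.7 FPKM in FF libraries. Of the 4 tested, Madcam1, the mucosal addressin, rose by 2.82 ± 0.32 and Enpp2, which makes lysophosphatidic acid, by 1.71 ± 0.10 (adjusted p = 0.00135 and 0.000154). Glycam1, a marker of high endothelial venules, averaged 22.7 ± 15.9 FPKM in BKO islets and 5.43 ± 2.51 FPKM in FF islets (SD, n = 3; adjusted p = 0.0552). Pdpn, a marker of reticular stroma and lymphatic vessels, is listed at 0 in all 6 libraries. All 10 markers of blood endothelium were lower, summing to between 329 and 371 FPKM in BKO libraries and between 635 and 661 FPKM in FF libraries. The part of stromal and endothelial cells in the Cxcl13, Ccl21a and Cxcl12 values was not tested.

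Among ligands of effector T cells, Ccl5, made by T and natural killer cells among others and read by Ccr1 and Ccr3 among other receptors, differed most. It stood at 7.69, 16.8 and 12.0 FPKM in BKO replicates 1, 2 and 3 and at 1.72, 0.360 and 0.140 FPKM in FF replicates 1, 2 and 3. Every BKO library exceeded every FF library, and FF replicate 1 held most of the FF reads, 25 against 5 and 2. The log2 difference was 3.50 ± 0.49 (adjusted p = 0.00297; ENSMUSG00000035042, chromosome 11, 83525778 to 83530518), and it was 2.94 without BKO replicates 2 and 3 (adjusted p = 0.122). Markers of cytotoxic and natural killer cells summed to 6.24, 21.2 and 11.7 FPKM in BKO libraries and to 0.562, 0.460 and 0.453 FPKM in FF libraries. All 3 of these markers that were tested were higher, and 5 of the 9 had no read in FF libraries. With FF sums under 1 FPKM, the tested markers entered the test through their BKO values, so this count is a description.

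Cxcl9, an interferon-γ-induced ligand of Cxcr3, had 0.827, 3.32 and 2.37 FPKM in BKO libraries and 0.110, 0.184 and 0.134 FPKM in FF libraries. The groups did not overlap, and BKO replicate 1 was the low library of its group. The difference was 1.93 ± 0.42 (adjusted p = 0.0141; ENSMUSG00000029417, chromosome 5, 92321347 to 92328079), with the call lost without BKO replicate 3 (1.81, adjusted p = 0.0672) and a difference of 1.05 without BKO replicates 2 and 3 (adjusted p = 0.0233). Cxcl10, its interferon-induced neighbour in function, had 0.895, 2.32 and 1.43 FPKM in BKO libraries and 0.147, 0.246 and 0.419 FPKM in FF libraries. Their receptor Cxcr3, found on activated T cells, had 1.16, 0.857 and 1.17 FPKM in BKO libraries and 0.153, 0.560 and 0.311 FPKM in FF libraries.

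Cxcl10 and Cxcr3 averaged under 1 FPKM over the 6 libraries and were tested only with a lower filter, at 0.1 FPKM, or with none. With that filter 23388 genes were tested, of which 11.5% were higher and 9.84% lower, and the 40 members tested comprised 16 higher and 2 lower. Cxcl10 then differed by 1.37 ± 0.29 (adjusted p = 0.0194) and Cxcr3 by 0.92 ± 0.22 (adjusted p = 0.0303). With no filter the Cxcl10 call was kept (adjusted p = 0.0358) and the Cxcr3 call was lost (adjusted p = 0.0557). Cxcl10 overlaps Art3, so its reads carry the same doubt on strand as those of Cxcr5. Xcl1, which cytotoxic lymphocytes secrete to reach cross-presenting dendritic cells, had 6, 15 and 9 reads in BKO libraries and 2, 0 and 0 reads in FF libraries (1.29 ± 0.29, adjusted p = 0.0248), and it overlaps Gm20743. The receptor of Xcl1, Xcr1, reached at most 0.299 FPKM in any library, and Cxcr6, a receptor of tissue-resident T cells, had 0.522, 0.927 and 0.924 FPKM in BKO libraries and 0.342, 0.394 and 0.279 FPKM in FF libraries (adjusted p = 0.0667). Cxcr6 overlaps Fyco1 on the opposite strand.

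The promoter of Cxcl10 is shown because the interferon-stimulated element is the textbook site of its induction. Capitals mark matches to GAAANNGAAA, searched on both strands in windows from 250 bases before to 50 bases after each start (RefSeq, GRCm38.p6). Cxcl14, a ligand of epithelia and stroma, holds the other match shown, and its window is given for comparison. Both stretches are from the minus strand, chr5:92349073-92349122 for Cxcl10 and chr13:56296694-56296743 for Cxcl14.
Cxcl10: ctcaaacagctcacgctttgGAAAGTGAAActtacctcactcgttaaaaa
Cxcl14: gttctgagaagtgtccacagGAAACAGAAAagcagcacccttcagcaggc
The motif occurred in 3.44% of all 32851 windows and in those of 3.99% of all genes. It occurred in those of 3 of the 42 member symbols with a window, the last being Ccl19. Cxcl9, the other interferon-induced ligand, had no such letters in its window, and a match or its absence says nothing here on binding. Cxcl14 had 1.13, 2.58 and 0.977 FPKM in BKO libraries and 0.326, 0.303 and 0.590 FPKM in FF libraries (1.12 ± 0.31, adjusted p = 0.0470 with the filter at 0.1 FPKM and 0.0805, not past the threshold, with none).

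Ccl22, which dendritic cells and macrophages make to draw regulatory T cells through Ccr4, was the least stable of the higher members. It had 0.454, 4.79 and 3.11 FPKM in BKO libraries and 0.199, 0 and 0 FPKM in FF libraries, from 22, 218 and 150 reads in BKO and 7, 0 and 0 reads in FF. BKO replicate 1 was far below the other BKO libraries although above all FF libraries. The difference was 2.24 ± 0.63 (adjusted p = 0.0354; ENSMUSG00000031779, chromosome 8, 94745590 to 94751699). The call was lost under 10 of the 15 other settings, among them each removal of an FF library (adjusted p = 0.0664, 0.0860 and 0.0931), the removal of BKO replicate 2 or 3 (0.0952 and 0.126), quantile normalization (0.119) and limma-voom (0.144). Without BKO replicates 2 and 3 the difference was 0.77 (adjusted p = 0.151). Ccr4 had 32 reads over the BKO libraries and 0 over the FF libraries, at least 7.75-fold higher. Dendritic-cell markers summed to 5.58, 9.03 and 6.57 FPKM in BKO libraries and to 5.90, 6.04 and 6.37 FPKM in FF libraries, and 0 of the 3 tested passed in either direction.

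Mucosal ligands were Ccl28 and Ccl25. Ccl28, secreted by colon, salivary and other mucosal epithelia to bring antibody-secreting cells through Ccr10, had 5.50, 4.12 and 5.10 FPKM in BKO libraries and 1.26, 0.872 and 1.10 FPKM in FF libraries. The groups were well apart and each was compact. The difference was 1.78 ± 0.15 (adjusted p = 0.000469; ENSMUSG00000074715, chromosome 13, 119623819 to 119654359), and the call was kept under all 15 settings. The Ccr10 values of the groups overlapped, with 0.250, 0.859 and 0.503 FPKM in BKO libraries and 0.613, 0.601 and 0.546 FPKM in FF libraries. Ccr10 overlaps Cntnap1 on the opposite strand.

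Ccl25, the small-intestinal and thymic ligand that draws gut-homing lymphocytes through Ccr9, did not pass although its groups did not overlap. It had 1.26, 5.78 and 3.09 FPKM in BKO replicates 1, 2 and 3 and 0.870, 1.09 and 0.896 FPKM in FF replicates 1, 2 and 3. The BKO replicates stood in the order 2, 3, 1, which was that of the enterocyte markers, all 11 tested of them higher in BKO islets, and also of the goblet and Paneth, T-cell, cytotoxic, plasma-cell, dendritic, neutrophil and lymphoid-stroma lists. The difference was 1.24 ± 0.43 (adjusted p = 0.0661), and it passed without BKO replicate 1 (1.71, adjusted p = 0.00747) and with each library scaled to its own total (1.53, adjusted p = 0.0239). It was 0.79 without BKO replicate 2 (adjusted p = 0.122) and 0.28 without BKO replicates 2 and 3 (adjusted p = 0.281). Ccl25 overlaps Elavl1 on the opposite strand. Ccr9 had 39, 62 and 57 reads in BKO libraries and 4, 5 and 1 reads in FF libraries, and it passed only with no filter on low values (adjusted p = 0.0181). The Ccr9 gene model overlaps further genes on both strands, among them Slc6a20a and Lztfl1 on the opposite strand, so its reads are uncertain. Markers of plasma cells, which both ligands attract, summed to 176, 267 and 207 FPKM in BKO libraries and to 108, 128 and 112 FPKM in FF libraries. Of the 7 tested, 4 were higher, 1 was lower and 2 did not pass. Prdm1, a transcription factor of plasma cells and other cells, was the lower one (-0.82 ± 0.09, adjusted p = 0.00123), and Jchain, the joining chain of secreted IgA and IgM, averaged 101 ± 41.6 FPKM in BKO islets and 0.670 ± 0.127 FPKM in FF islets (SD, n = 3).

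The members that fell were the macrophage ligands Ccl3 and Ccl4, inflammatory proteins that draw myeloid cells and lymphocytes. Ccl3 had 3.44, 3.27 and 4.66 FPKM in BKO libraries and 9.75, 7.77 and 8.35 FPKM in FF libraries. Ccl4, its neighbour on chromosome 11, had 3.71, 5.11 and 4.16 FPKM in BKO libraries and 7.31, 8.39 and 10.0 FPKM in FF libraries. In FF islets these were the ligands with the highest levels, averaging 8.62 ± 1.02 FPKM for Ccl3 and 8.57 ± 1.35 FPKM for Ccl4, and neither gene overlapped between groups. Ccl3 fell by 1.10 ± 0.14 on the log2 scale (adjusted p = 0.00230; ENSMUSG00000000982, 83647844 to 83649355) and Ccl4 by 0.91 ± 0.15 (adjusted p = 0.00503; ENSMUSG00000018930, 83662584 to 83664683). With each library scaled to its own total, which moves the median of all genes by 0.36, both were still lower (-0.72 and -0.53), and the Ccl4 call was lost without BKO replicates 2 and 3 (adjusted p = 0.0645).

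Macrophage markers had a median log2 difference of -0.36 over the 9 tested, summing to 221, 185 and 189 FPKM in BKO libraries and to 203, 171 and 182 FPKM in FF libraries. Of these, 1 was higher, 3 were lower and 5 did not pass. The higher one was Lyz2, lysozyme of macrophages and other myeloid cells, which at 55.5 ± 8.56 FPKM in BKO islets and 23.0 ± 2.89 FPKM in FF islets (SD, n = 3; log2 difference 1.25, adjusted p = 0.00116) made up part of those sums. The lower ones included C1qb, a complement subunit of resident macrophages, at 20.2 ± 2.64 FPKM in BKO islets and 31.8 ± 1.73 FPKM in FF islets (SD, n = 3; adjusted p = 0.00455). Il1b, a macrophage cytokine that induces many chemokines, was lower too, with a difference of -0.75 ± 0.14 (adjusted p = 0.00788). The monocyte receptor Ccr2 stayed under 1 FPKM, at 0.440, 0.514 and 0.464 FPKM in BKO libraries and 0.323, 0.471 and 0.379 FPKM in FF libraries. The part of macrophage content in the lower Ccl3 and Ccl4 levels was not tested.

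Ccl2, the main monocyte attractant and ligand of Ccr2, passed as higher with the filter at 0.1 FPKM and not with no filter. It had 0.506, 1.39 and 1.27 FPKM in BKO libraries and 0.116, 0.365 and 0.118 FPKM in FF libraries, from 83 reads in all, and it overlaps Gm17268 on the opposite strand. The difference was 1.12 ± 0.29 (adjusted p = 0.0398 with the filter at 0.1 FPKM and 0.0648 with none). Ccl7 and Ccl12, further Ccr2 ligands, had 27 and 11 reads over the 6 libraries. Ccl6 and Ccl9, macrophage ligands known from rodents, did not pass, and Ccl6 (0.722, 1.03 and 1.16 FPKM in BKO libraries and 2.10, 0.424 and 0.901 FPKM in FF libraries) changed sign between settings.

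Of the neutrophil ligands, which act on Cxcr2, Cxcl1 was higher and Cxcl2 was not tested at the filter of 1 FPKM. Cxcl1 had 2.15, 2.51 and 1.93 FPKM in BKO libraries and 0.705, 1.14 and 0.467 FPKM in FF libraries. No BKO library reached down to the FF range, and the difference was 1.11 ± 0.23 (adjusted p = 0.0123; ENSMUSG00000029380, chromosome 5, 90891241 to 90893115), lost only without BKO replicates 2 and 3 (adjusted p = 0.149). Cxcl2 had 0.649, 0.124 and 0.630 FPKM in BKO libraries and 0.543, 1.04 and 0.717 FPKM in FF libraries, a difference of -0.42 ± 0.29 with the filter at 0.1 FPKM (adjusted p = 0.365). Cxcr2 had 32 reads over the BKO libraries and 0 over the FF libraries, at least 7.75-fold higher, and Cxcl5 had 11 reads against 0, at least 2.66-fold higher. Neutrophil markers were low in every library, between 0.558 and 2.14 FPKM in sum in BKO libraries and between 0.263 and 0.677 FPKM in FF libraries, with Ly6g at 0 in all 6.

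The promoters of Cxcl1, Cxcl2 and Ccl20 are shown because they share the letters of an NF-κB site and of these genes Cxcl1 alone passed the threshold. Capitals mark matches on either strand to GGGNNTTTCC in windows of the same kind. The stretches are from the plus strand of GRCm38.p6, at chr5:90891136-90891203 for Cxcl1, chr5:90903782-90903850 for Cxcl2 and chr1:83116666-83116715 for Ccl20.
Cxcl1: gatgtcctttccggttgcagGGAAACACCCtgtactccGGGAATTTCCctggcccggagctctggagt
Cxcl2: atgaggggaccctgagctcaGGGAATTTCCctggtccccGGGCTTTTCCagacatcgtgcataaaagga
Ccl20: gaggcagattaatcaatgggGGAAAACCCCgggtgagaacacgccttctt
Cxcl1 and Cxcl2 each hold 2 matches. The letters occurred in 1.63% of all windows, in those of 1.89% of all genes and in those of 6 of the 42 member symbols. The others were Ccl9, Ccr3 and Cxcl3, and no match shown overlapped one of GAAANNGAAA. Among regulators of this pathway and of interferon signalling, 6 of 11 tested were higher and 1 was lower, against 16.9% and 17.2% of all tested genes. Tnfaip3, which restrains NF-κB, differed by 1.20 ± 0.14, Nfkb2 by 1.01 ± 0.08 and Relb by 0.85 ± 0.12 (adjusted p = 0.00139, 0.000509 and 0.00322), the last pair being the subunits of the alternative pathway that lymphotoxin signals through. A shared match is a description and not a cause.

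**Figure D2:**
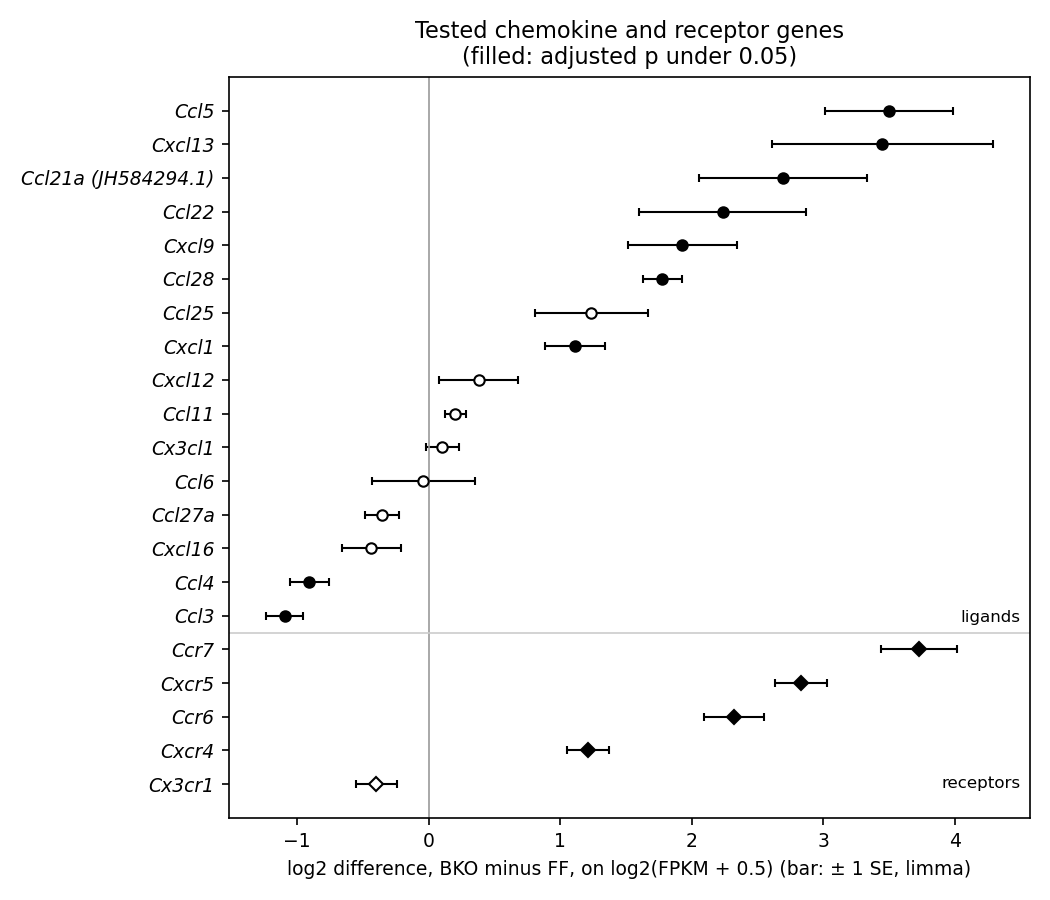
Log2 difference (BKO minus FF, on log2(FPKM + 0.5)) of the 21 tested members with ± 1 SE from limma, ligands as circles and receptors as diamonds, filled where the adjusted p was under 0.05. Differences run between -1.10 for Ccl3 and 3.73 for Ccr7.

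The other tested members did not pass. Ccl11, the eosinophil attractant eotaxin, had 3.59, 3.50 and 3.21 FPKM in BKO libraries and 2.87, 2.88 and 2.99 FPKM in FF libraries. These groups did not overlap and differed by 0.20 ± 0.08 (adjusted p = 0.0982), a difference that passed with each library scaled to its own total (0.55, adjusted p = 0.00191), as that of Cx3cl1 did (0.48, adjusted p = 0.0209). Cx3cl1, the membrane-bound fractalkine of endothelium and other cells, had 4.76, 6.81 and 5.42 FPKM in BKO libraries and 5.15, 5.28 and 5.11 FPKM in FF libraries (0.10 ± 0.12, adjusted p = 0.551). Its receptor Cx3cr1, a marker of resident macrophages and monocytes, had 1.43, 2.07 and 2.03 FPKM in BKO libraries and 2.95, 2.32 and 2.45 FPKM in FF libraries (-0.40 ± 0.16, adjusted p = 0.0906). Cx3cr1 was the tested receptor whose BKO values all lay below its FF values, and it passed with quantile normalization (adjusted p = 0.0318) but under no other setting. Its difference was -0.26 without BKO replicate 1 and -0.67 without BKO replicates 2 and 3 (adjusted p = 0.192 and 0.111). Its gene model spans further genes, among them Gorasp1 on the same strand, so its level is uncertain.

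Cxcl16, a membrane-bound ligand of Cxcr6 on macrophages and other cells, had 2.95, 6.04 and 3.64 FPKM in BKO libraries and 5.43, 6.09 and 5.44 FPKM in FF libraries. BKO replicate 2 alone stood within the FF range, and the difference of -0.44 ± 0.22 (adjusted p = 0.177) passed without that library (-0.70, adjusted p = 0.0101) and without BKO replicates 2 and 3 (-0.83, adjusted p = 0.0481). It was -0.24 without BKO replicate 1 (adjusted p = 0.408). The gene overlaps Zmynd15. Ccl27a, an epithelial ligand of Ccr10, had 5.11, 5.94 and 5.03 FPKM in BKO libraries and 7.56, 7.75 and 5.78 FPKM in FF libraries (-0.35 ± 0.13, adjusted p = 0.0709), with the sign reversed to 0.02 when each library was scaled to its own total. It passed as lower with quantile normalization (-0.39, adjusted p = 0.0444), with the replicate block (adjusted p = 0.0451) and without FF replicate 3 (-0.48, adjusted p = 0.0252). It overlaps Il11ra1, and reads of the pair cannot be told apart without strand.

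Low members make up the rest. No member outside the tested 21 exceeded 2.58 FPKM in any library, the value of Cxcl14 in BKO replicate 2. Reads in BKO libraries and 0 in all FF libraries were found for 11 members. Among them were Ccl1 with 8 reads, Ccl17 and Cxcl15 with 4 each, Ccl8 with 2 and Ccl24 with 1. Cxcl17, Ccr1l1 and Cxcr1 had a single read in FF libraries and 0 in BKO libraries. The shares over all genes were not counted, and the FPKM divisor was larger in BKO libraries. A gene at equal FPKM therefore has more reads there. Ccr1, a receptor of myeloid cells, had at most 0.415 FPKM in BKO libraries and 0.220 FPKM in FF libraries and did not pass at the filter of 0.1 FPKM, and Ccr3, Ccr8 and Ccl27b had 6, 3 and 4 reads over the 6 libraries. With so few reads no difference was detectable for most of them. The 7 members with no read were all ligands, namely Cxcl3, Ccl26, Ccl21b on chromosome 4 and on scaffold JH584293.1, Ccl21c, and the scaffold JH584294.1 copies of Ccl19 and Ccl27.

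Ligands and receptors were then set side by side as 24 textbook pairs. Both partners were tested in 4 pairs and both were higher in 2, Cxcl13 with Cxcr5 and Ccl21a with Ccr7. Cxcr5, Ccl21a and Ccr7 averaged under 1 FPKM in FF islets and entered the test through their BKO values, so the count is a description. With the filter at 0.1 FPKM both were tested in 17 pairs and both were higher in 4, the added ones being Cxcl9 and Cxcl10 with Cxcr3, whose call was lost with no filter. In Cxcl12 with Cxcr4 the receptor passed and the ligand did not. Differences between partners were not tested.

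Among all tested genes 16.9% were higher and 17.2% lower, the shares to set beside the counts in this paragraph. Of the 15 tested genes that relay or end receptor signals, 7 were higher, 2 were lower and 6 did not pass. Coro1a and Rac2, which build the leukocyte cytoskeleton for migration, differed by 2.84 ± 0.09 and 2.76 ± 0.17, and Rgs13, a brake on chemokine signals in germinal-centre B cells, by 2.41 ± 0.31 (adjusted p = 1.92e-05, 0.000156 and 0.00211). Grk5, a receptor kinase not specific to leukocytes, was lower at -0.65 ± 0.12 (adjusted p = 0.00861). Of 10 tested homing partners, 7 were higher and 0 lower, among them Itgb7, a subunit of the gut-homing integrin (2.65 ± 0.21, adjusted p = 0.000417), and Itgal, a leukocyte integrin subunit (2.14 ± 0.17, adjusted p = 0.000397). Of 6 tested lymphoid-organizer genes, Ltb, Lta and Tnfrsf1b were higher and 0 were lower, and lymphotoxin β, Ltb, averaged 11.1 ± 0.696 FPKM in BKO islets and 0.508 ± 0.235 FPKM in FF islets (SD, n = 3; adjusted p = 7.93e-05). Ltb thus entered the test through its BKO values, and the counts of these lists are descriptions.

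**Figure D3:**
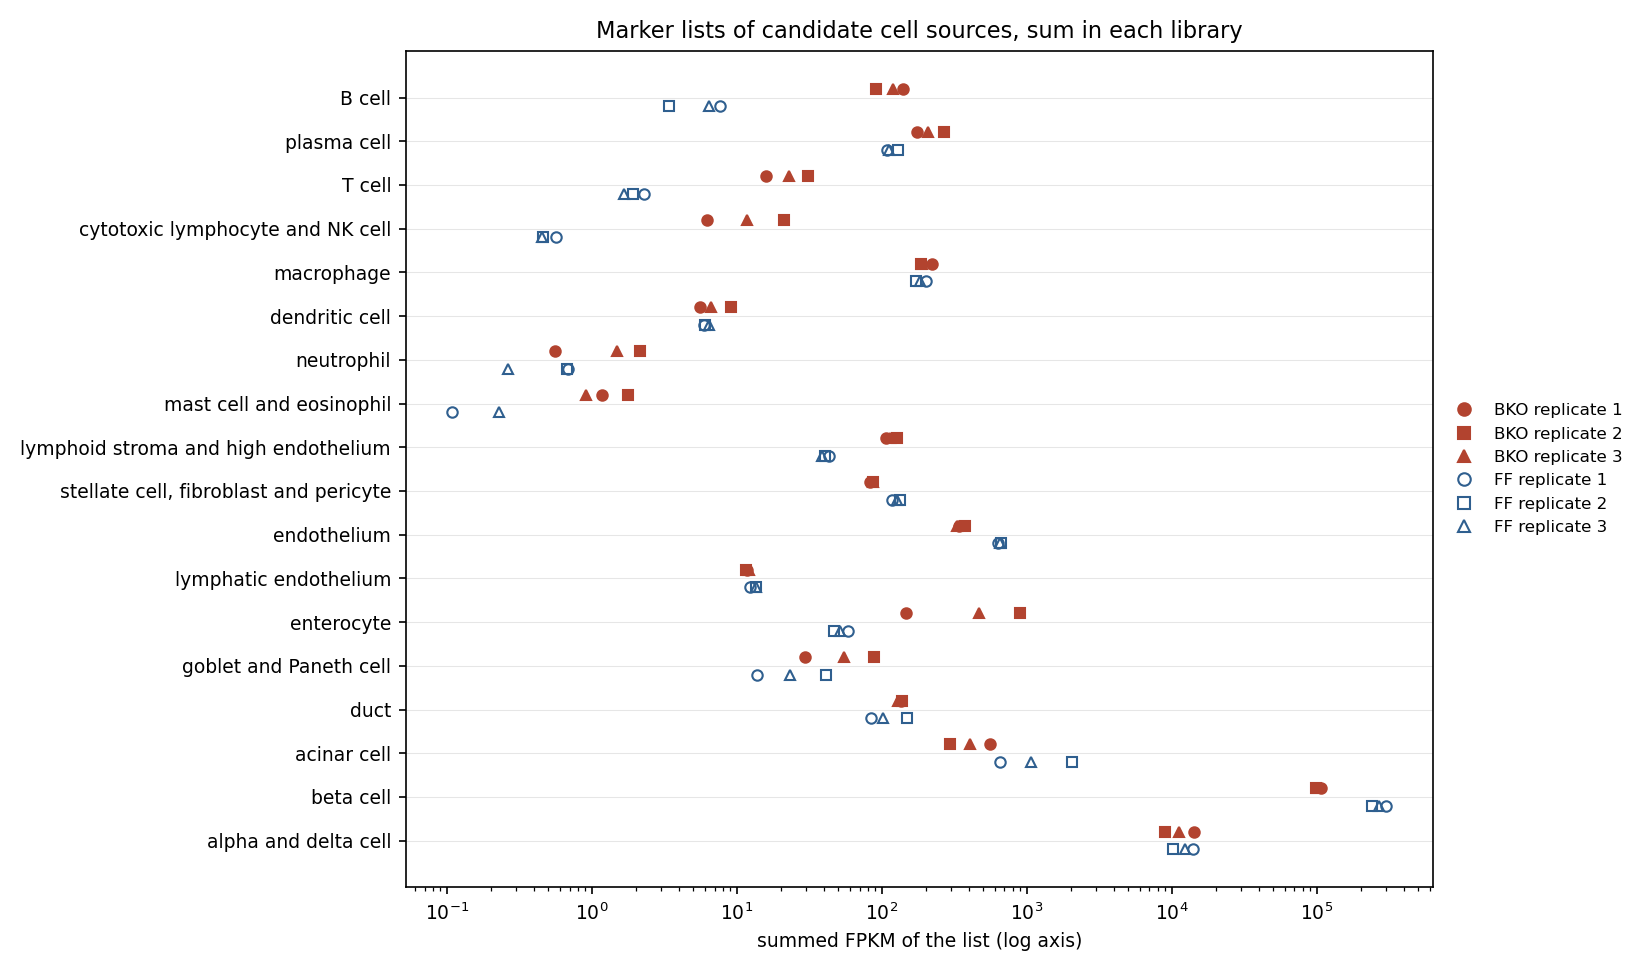
Summed FPKM of each marker list in each library on a log axis, BKO filled and FF open; FF replicate 2 has a sum of 0 for mast cells and eosinophils and is not drawn there. B-cell, plasma-cell, T-cell, cytotoxic, mast-cell, lymphoid-stroma and enterocyte sums of the BKO libraries all lie above those of the FF libraries. Sums of the stellate-cell list and of blood endothelial, lymphatic, acinar and beta-cell markers all lie below.

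Lists not yet given moved as follows. Of the goblet and Paneth cell markers 3 of 6 tested were higher and 0 lower, summing to between 29.5 and 87.4 FPKM in BKO libraries and between 13.7 and 40.8 FPKM in FF libraries. Of the stellate cell, fibroblast and pericyte markers 5 of 9 tested were higher and 2 lower, with Dcn, a fibroblast proteoglycan, higher by 1.36 ± 0.20 and Rgs5, a pericyte marker, lower at -0.95 ± 0.07 (adjusted p = 0.00344 and 0.000264). Their sum was nevertheless lower in every BKO library, at 82.6, 86.1 and 86.2 FPKM against 117, 133 and 126 FPKM in FF libraries. Of the lymphatic markers 1 was higher and 2 lower, of the duct markers 0 were higher and 1 lower, and of the α- and δ-cell markers 0 of 5 passed. All 7 acinar and all 8 β-cell markers were lower. No mast cell or eosinophil marker reached the filter, and their sums ran between 0.915 and 1.78 FPKM in BKO libraries and between 0 and 0.227 FPKM in FF libraries.

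The BKO libraries differed among themselves in the levels of members. The ratio of BKO replicate 2 to BKO replicate 1, from scaled reads with an exact 95% binomial interval that covers counting error only, was above 1 for 15 of the 33 members with at least 50 BKO reads, below 1 for 5 and not told from 1 for 13. The same count over all genes was not made. Genes in general also differed between these libraries beyond counting error, with a chi-square of 32.6 per degree of freedom over genes with enough reads. Whether the counts of the members differ from those of genes in general was not tested. Ratios above 1 among the higher members were 10.6 (6.80 to 17.2) for Ccl22, 4.87 (3.40 to 7.15) for Ccl21a, 4.02 (2.95 to 5.57) for Cxcl9, 2.32 (1.95 to 2.75) for Ccr7 and 2.19 (1.80 to 2.67) for Ccl5. Ratios below 1 were 0.394 (0.344 to 0.450) for Cxcl13, 0.633 (0.561 to 0.714) for Cxcr4, 0.749 (0.656 to 0.854) for Ccl28 and 0.804 (0.668 to 0.968) for Cxcr5. Ccr6 and Cxcl1 had intervals that hold 1.

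The marker lists also had ratios on both sides of 1, at 4.13 (4.03 to 4.23) for enterocytes, 3.12 (2.62 to 3.73) for cytotoxic cells, 1.85 (1.71 to 2.00) for T cells, 1.66 (1.49 to 1.85) for dendritic cells, 1.48 (1.45 to 1.52) for plasma cells, 0.860 (0.831 to 0.890) for macrophages, 0.655 (0.633 to 0.677) for B cells, 0.636 (0.632 to 0.639) for α and δ cells and 0.521 (0.506 to 0.536) for acinar cells. Ccl25, at 4.60 (3.93 to 5.41), had an interval that overlapped that of the enterocyte list. So did Ccl21a, Cxcl9, Ccr10 at 3.44 (1.58 to 8.25) and Ccl2 at 2.75 (1.38 to 5.89), so the overlap does not single out Ccl25. These are ratios between 2 libraries of the same label, and the part of each cell type in them was not tested.

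**Figure D4:**
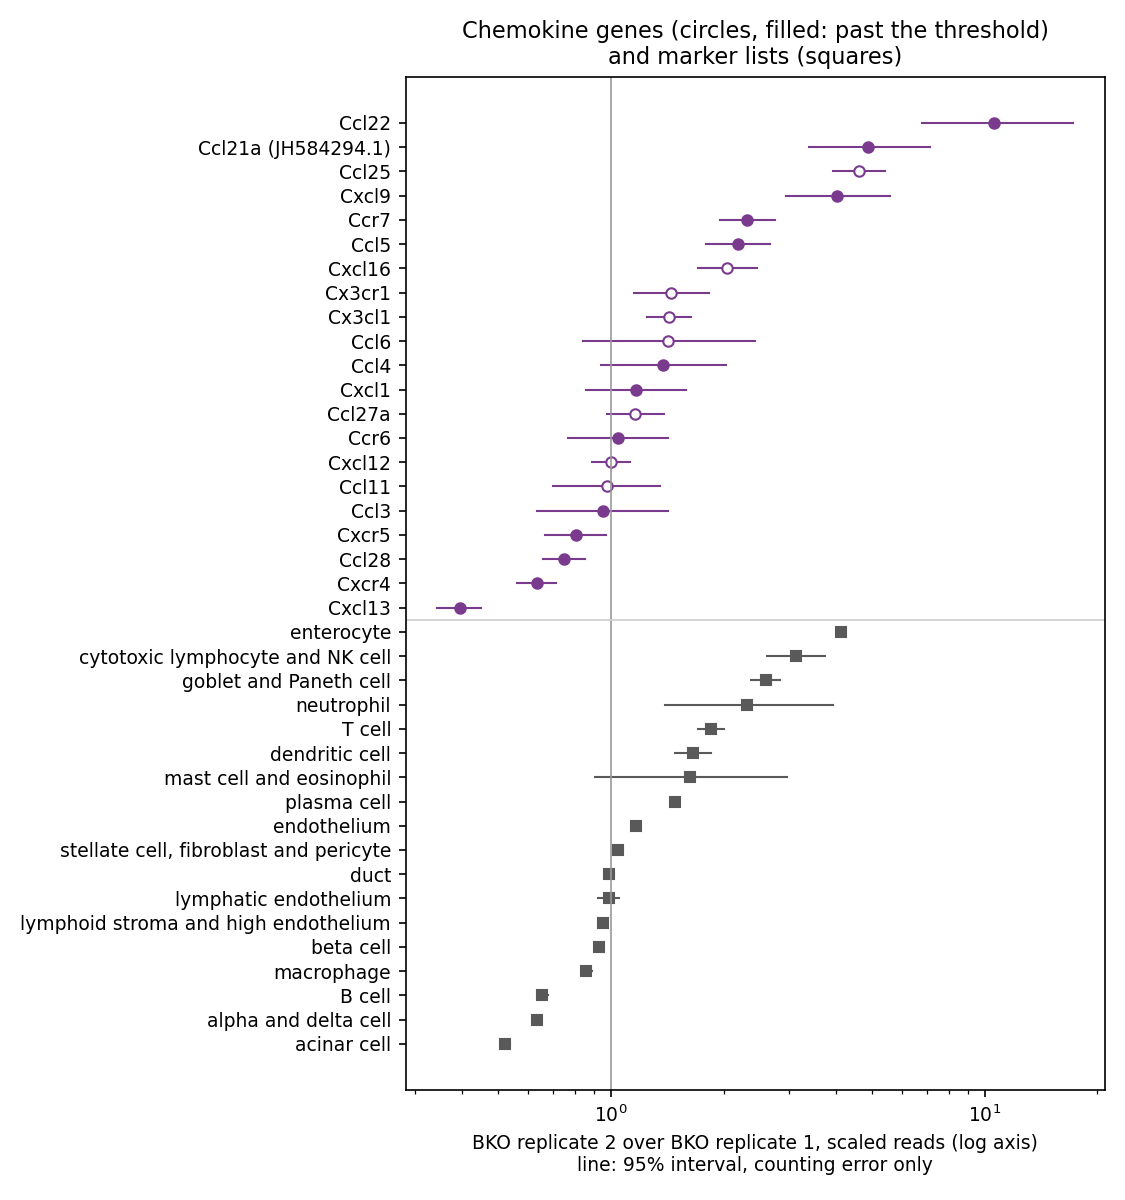
Ratio of BKO replicate 2 to BKO replicate 1 in scaled reads, on a log axis, for the tested members (circles, filled where past the threshold) and for marker lists (squares), with 95% intervals of counting error. The higher members range between 0.394 for Cxcl13 and 10.6 for Ccl22.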

How the data were processed

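The authors deposited 1 table of FPKM values for 6 islet libraries, with gene lengths and GRCm38 coordinates per the file headers. The submitters' processing notes name DESeq2 1.16.1, featureCounts 1.5.0-p3, HISAT2 2.0.5 and the assembly GRCm38.p6. Their settings and the strandedness were not given in the sources used here. Within each library the product of FPKM and gene length came in whole multiples of a single step (100% of values within 0.1 of a whole number), and these multiples were taken as reads. The deposited FPKM already carried a median-of-ratios scaling, and its divisor over the reads recovered was 1.13 to 1.17 in BKO libraries and 0.855 to 0.885 in FF libraries. No per-sample column was left unused (0 columns).

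The main test was that of limma 3.58.1 (R 4.3.3), with a linear fit and moderated variances that follow a trend, two-sided, on log2(FPKM + 0.5). It covered the 14497 genes whose mean reached 1 FPKM, and p-values were Benjamini-Hochberg adjusted over all of them, with a threshold of 0.05. The scripts were tested on simulated data. Groups and replicate numbers came from the sample titles. Same-numbered libraries had correlations of 0.0811, 0.0751 and 0.0423 in their deviations from the group means, so the numbers were not taken as pairs. Alternatives were other filters, pseudocounts and scalings, limma-voom on the recovered reads, a replicate block and libraries left out. A gene at 0 in a group was given a floor of 3 reads over the group, and the other group was taken at its observed reads. Such folds allow for counting error in the group at 0 alone and are not lower bounds, and intervals cover counting error only. Members past the threshold or with a mean of at least 1 FPKM in either group were described by library, and of each other list up to 4 genes past the threshold with the largest differences. The members, 18 marker lists and 5 pathway lists were chosen with earlier results of these data known. Some items are not reported here.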

Additional observations from a re-analysis of the deposited data

How the results depend on the processing

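Over 15 other settings, 4 receptors were higher in each except with the filter at 0.1 FPKM (5) and with no filter (6), and 0 were lower except with quantile normalization, where Cx3cr1 made it 1. Higher ligands numbered 7, also with no filter and with pseudocount 1, against 11 with the filter at 0.1 FPKM, 10 under own-total scaling, 6 with pseudocount 0.1, quantile normalization or the replicate block, 5 with limma-voom, and 4 to 7 with a single library left out. The 7 with no filter were not the same ligands, since Ccl22 and Cxcl13 were lost and Cxcl10 and Xcl1 came in. All tested genes gave 2446 higher and 2489 lower calls, against 7550 and 716 with each library scaled to its own total, 771 and 546 without BKO replicates 2 and 3, and 1370 to 2106 higher and 1410 to 2130 lower with a single library left out. The higher share of calls was 49.6%, and 91.3% under own-total scaling, which moved the median gene by 0.36. Signs turned for Ccl27a (0.020 under own-total scaling), Ccl6 (0.00311 with pseudocount 0.1, 0.22 under own-total scaling, and -0.39 to 0.36 with a single library left out) and Cx3cl1 (-0.025 to 0.21 with a single library left out, -0.11 without BKO replicates 2 and 3). With the replicate number as a block there were 2313 higher and 2346 lower genes, 6 higher and 3 lower ligands and 4 higher receptors; every library correlated best with its own number, a hint from the data and not from the design. Ccl22 was lost under the block (adjusted p = 0.0610) and Ccl27a was gained. The causes were not tested. Removing BKO replicates 2 and 3 leaves 1 BKO library, assumed to vary like the FF libraries. Depth limits the 16 members with reads below 0.1 FPKM, which had at most 32 reads each over the 6 libraries.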
